A study of Homo sapiens with 87 samples.

Results

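The zinc finger genes described here are the 213 genes with a symbol made of ZNF and a number whose mean over 3 wild-type HAP1 libraries was at least 10 CPM (a gene's count scaled to a library total of 1000000). They were chosen by their level in those wild-type libraries from 479 such symbols among 35438 genes, so that level is given as a description. Of the other symbols, 96 lay under 1 CPM in wild type and 170 from 1 to under 10 CPM. HAP1 is a near-haploid human line of leukaemic origin. Its wild-type clone C631 was compared with 24 knockout clones of 22 genes of the BAF chromatin-remodelling complexes (mammalian SWI/SNF), with 3 poly(A) RNA-seq libraries per clone. The knocked-out genes, with their clones, were ACTB (2471-10), ARID1A (618-10 and 618-3), ARID1B (582-7), ARID2 (907-9), BCL11A (2426-10), BCL11B (2432-10), BCL7A (2434-10), BCL7B (4278-8), BRD7 (923-10), BRD9 (934-10), DPF1 (2779-11), DPF2 (2777-4), DPF3 (2776-1), PBRM1 (1135-10), PHF10 (2778-11), SMARCA2 (4055-12), SMARCA4 (2878-4 and 2878-6), SMARCC1 (2476-12), SMARCC2 (no clone named), SMARCD1 (2478-6), SMARCD2 (2782-10) and SMARCD3 (2480-12). A second table held 6 groups of 2 libraries: wild type, ARID2 knockout and SMARCA4 knockout cells under a control knockdown, ARID2 knockout cells under SMARCA4 knockdown, SMARCA4 knockout cells under ARID2 knockdown, and wild type under both knockdowns. All groups share the HAP1 background. The labels name 1 clone for each knockout line, except SMARCC2, which is counted here as 1 clone, and the lines of the second table. For 20 of the genes the loss of the gene and the clone therefore cannot be told apart. Nothing in the labels says that replicates came from separate cultures, so p-values measure only the spread between these libraries.

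Zinc finger genes of this type encode proteins with tandem C2H2 fingers, each finger contacting a few bases of DNA. Many also carry a KRAB domain, which binds TRIM28; TRIM28 recruits the histone methyltransferase SETDB1 and heterochromatin proteins, and the targets are often transposable elements. Many human genes of the family stand in clusters on chromosome 19. BAF complexes move or evict nucleosomes and are built around an ATPase, SMARCA4 or SMARCA2. ARID1A or ARID1B marks canonical BAF, ARID2 with PBRM1, BRD7 and PHF10 marks PBAF, and BRD9 marks the non-canonical form.

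Knockout libraries held 14917644 to 29993652 counts, and double-loss libraries 9144150 to 19789622. In 14 of the 24 clones the targeted gene's own mRNA was called lower than in wild type. In the other 10 it was not. Among these, ARID1A 618-10 (-0.90), ARID2 (-0.67), DPF3 (-0.88), SMARCC2 (-0.75) and SMARCD3 (-0.72) passed the adjusted p but fell by less than the 1 log2 unit that a call needs. BCL11A, BCL11B, BCL7A, BRD9 and PBRM1 did not pass the adjusted p. The reason was not tested. In the SMARCA4 clones SMARCA4 read 12.3, 17.4 and 10.8 CPM (2878-4) and 13.1, 15.8 and 15.1 CPM (2878-6) against a wild-type mean of 252.7 CPM. Markers of A549, a lung cancer line that the culture protocol also names, summed to 0.5012 to 5.901 CPM per library, with all 6 under 1 CPM in wild type. Of 6 genes listed for HAP1 and its leukaemic origin, 4 exceeded 1 CPM in wild type and LMO2 was under 1 CPM in every library. These 6 summed to 48.6 to 129.4 CPM. The 4 measured HEK293 markers summed to 25.09 to 152.8 CPM, a range that overlaps it. Of these 4, 1 was under 1 CPM in wild type, and NEFM was under 1 CPM in every library. The 6 fibroblast markers summed to 16.76 to 168.5 CPM. Of the 6, 5 were under 1 CPM in wild type, and COL1A2 and DCN were under 1 CPM in every library.

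Large departures were rare among the expressed ZNF genes, and their spread across clones was about that of other expressed genes. Their wild-type means, which chose them, ran from 10.02 to 302.7 CPM with a median of 23.41 CPM; 93 lay between 10 and 20 CPM and 32 above 50 CPM. The standard deviation (SD) of a gene's 24 clone means had a median of 0.167 log2 CPM over the 213 genes (25th to 75th percentile 0.135 to 0.216), beside 0.166 over all 9506 genes at 10 CPM or more. The SD between single libraries of the same clone had a median of 0.166 log2 CPM over these ZNF genes; the 24 clone means are each over 3 libraries, so the 2 SDs are not on the same footing. Of 5112 gene-by-clone means, 26 lay more than 1 log2 unit from the gene's own median; 99.49% lay within it, beside 98.71% for all genes at 10 CPM or more.

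The least variable members were ZNF620, whose clone means ran from 9.127 CPM (ACTB clone) to 11.45 CPM (PBRM1 clone), ZNF670 (12.83 to 16.25 CPM) and ZNF770 (98.09 to 119.6 CPM). ZNF664, ZNF609, ZNF207 and ZNF146 had the highest wild-type CPM, at 302.7, 282.5, 269.2 and 253.8. ZNF207, also called BuGZ, acts at the mitotic spindle; CPM is not scaled by gene length and does not rank genes by transcript number. At the threshold, ZNF608 (10.02 CPM), ZNF816 (10.04) and ZNF468 (10.14) were just inside, and ZNF350 (9.999), ZNF446 (9.971) and ZNF416 (9.961) just outside. The most variable members were ZNF440 (SD 1.729), ZNF492 (0.937) and ZNF608 (0.866).

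**Figure D1:**
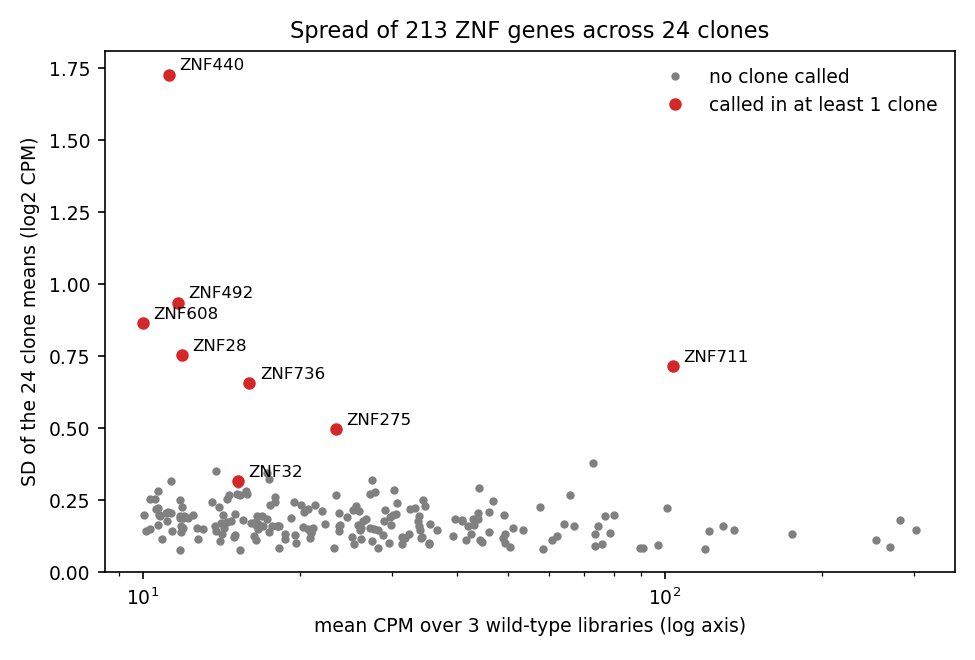
Each point is 1 of the 213 ZNF genes: mean CPM over the 3 wild-type libraries (log axis) against the SD of its 24 clone means in log2 CPM. Red points are the 8 genes called in at least 1 clone; the other 205 lie at an SD of 0.379 or less, and ZNF440 stands highest at 1.729.

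To ask which members departed in a clone without using the wild-type libraries that chose them, each clone was compared with the equally weighted mean of the clones of other genes. A gene was called where the Benjamini-Hochberg adjusted p was at most 0.05 and the change at least 1 log2 unit either way, with edgeR's quasi-likelihood test. Only 8 of the 213 members were called in any clone: ZNF440, ZNF492, ZNF736, ZNF28, ZNF608, ZNF711, ZNF32 and ZNF275. They made 36 called pairs of gene and clone among 5112, 21 lower (0.411%) and 15 higher (0.293%), beside 2.23% lower and 2.49% higher for all genes tested. Among genes at 10 CPM or more in wild type 0.743% of pairs were called in each direction. ZNF440 alone supplied 18 of the 36 pairs; without it 13 lower and 5 higher pairs were left. The ARID2 and BRD7 clones had no member called, and the other 22 had 1 to 3.

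**Figure D2:**
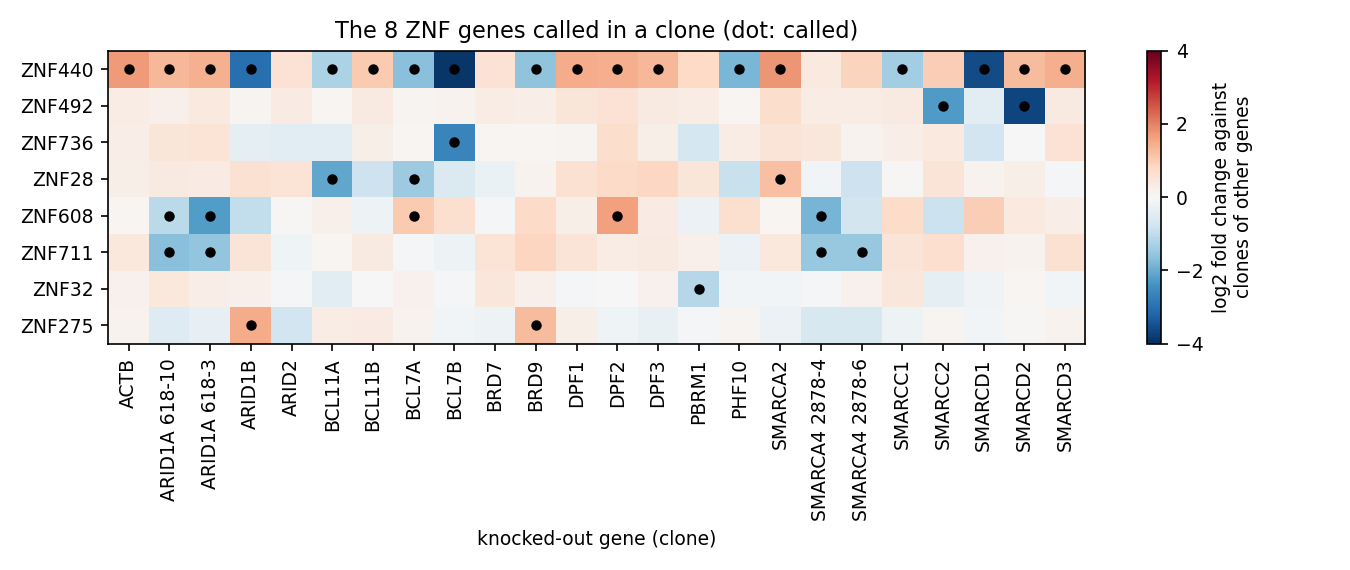
Log2 fold change of the 8 called ZNF genes (rows) in each of 24 clones (columns) against the clones of other genes; black dots mark called pairs. ZNF440 reaches -3.90 in the BCL7B clone and 1.77 in the SMARCA2 clone, while ZNF736, ZNF492 and ZNF32 are marked in 1, 2 and 1 clones.

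ZNF440 was the only member at a silenced level, defined as every one of a clone's 3 libraries under 1 CPM, and this held in 3 clones of 3 different genes. No member was silenced in a single clone alone. The share of all genes at this level is not given here. A related measure is a clone mean at least 3 log2 units below the gene's median over clones. That held for 2 members (0.939%), beside 153 of 9506 genes at 10 CPM or more (1.61%), so such falls were not more common among members. ZNF440, a KRAB zinc finger gene of the chromosome 19 cluster, read 11.7, 9.94 and 12.0 CPM in wild type. It read 0.305, 0.5 and 0.299 CPM in the BCL7B clone, 0.294, 0.389 and 0.699 CPM in the SMARCD1 clone and 0.757, 0.527 and 0.709 CPM in the ARID1B clone. BCL7B and SMARCD1 are subunits shared between complexes, and ARID1B is the alternative to ARID1A. These 9 libraries lay below all 48 libraries of the 16 clones with the highest levels and held 6 to 15 counts each. The log2 fold changes against the clones of other genes were -3.90 (SE 0.175, adjusted p = 5.43e-27), -3.59 (SE 0.171, adjusted p = 2.22e-25) and -3.01 (SE 0.16, adjusted p = 1.31e-23).

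ZNF440 was called lower in 5 more clones, PHF10, BCL7A, BRD9, SMARCC1 and BCL11A, with means from 1.465 to 2.146 CPM. The log2 fold changes ran from -1.83 (PHF10) to -1.28 (BCL11A). Their 15 libraries ran from 1.15 to 2.28 CPM, and the 48 libraries of the remaining 16 clones from 5.76 to 17.1 CPM. No library fell between 2.28 and 5.76 CPM, so the low clones and the others did not overlap. Among those 16, the ARID2, BRD7, PBRM1 and both SMARCA4 clones also lay below every wild-type library, at 5.76 to 9.57 CPM, and were not called. Neighbours in the order of the 5 clones called lower overlapped in their libraries, while the PHF10 clone lay below the SMARCC1 and BCL11A clones in every library. The highest levels were in the SMARCA2 clone (16.0, 17.1 and 15.3 CPM) and the ACTB clone (14.3, 16.6 and 15.2 CPM), which were above every wild-type library. ZNF440 was called higher in these and in 8 further clones (both ARID1A clones, BCL11B, SMARCD2, DPF1, DPF2, DPF3 and SMARCD3), by 1.06 to 1.77 on the log2 scale. The mean it was compared with includes the 8 low clones; against wild type those 10 differences ran from -0.15 to 0.52.

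**Figure D3:**
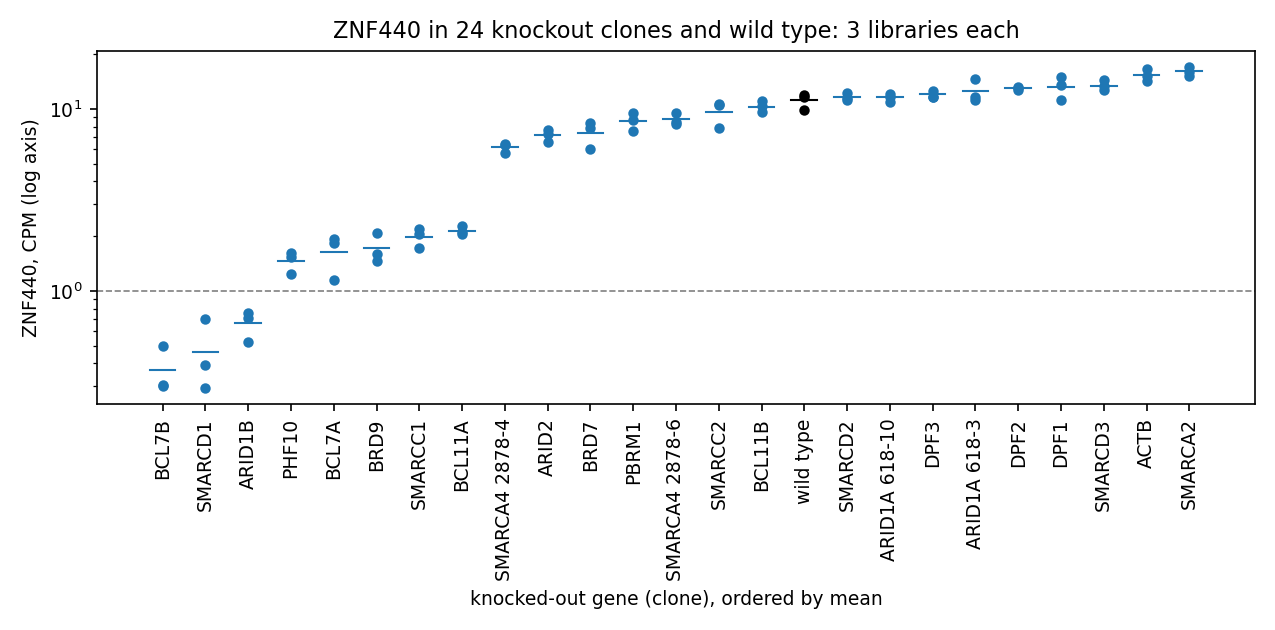
ZNF440 in every library (points, CPM, log axis) and the mean of each group of 3 (bars), with 24 clones and wild type (black) ordered by mean; the dashed line is 1 CPM. The BCL7B, SMARCD1 and ARID1B clones lie below the line, 5 clones lie between 1.15 and 2.28 CPM, and 16 clones lie at 5.76 CPM or more.

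The promoters of the 3 members with the largest falls are printed here because they are the genes that came closest to full loss of mRNA. They are RefSeq sequences of GRCh38.p14, 250 bases before to 50 after the annotated start, on the plus strand, with each CpG in capitals. ZNF440 is at chr19:11814023-11814322, ZNF492 at chr19:22634074-22634373 and ZNF736 at chr7:64313711-64314010.
ZNF440: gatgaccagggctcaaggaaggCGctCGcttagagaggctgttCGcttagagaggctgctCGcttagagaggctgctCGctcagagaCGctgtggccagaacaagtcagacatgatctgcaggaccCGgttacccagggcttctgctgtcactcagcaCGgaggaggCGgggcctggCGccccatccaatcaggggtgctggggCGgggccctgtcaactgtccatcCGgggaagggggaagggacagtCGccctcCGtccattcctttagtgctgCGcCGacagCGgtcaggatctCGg
ZNF492: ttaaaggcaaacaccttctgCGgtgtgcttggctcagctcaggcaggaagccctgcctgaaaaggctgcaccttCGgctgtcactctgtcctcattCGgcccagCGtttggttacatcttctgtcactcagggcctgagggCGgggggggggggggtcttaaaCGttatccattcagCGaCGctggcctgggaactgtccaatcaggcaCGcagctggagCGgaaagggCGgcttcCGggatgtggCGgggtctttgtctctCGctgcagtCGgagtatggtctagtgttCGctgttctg
ZNF736: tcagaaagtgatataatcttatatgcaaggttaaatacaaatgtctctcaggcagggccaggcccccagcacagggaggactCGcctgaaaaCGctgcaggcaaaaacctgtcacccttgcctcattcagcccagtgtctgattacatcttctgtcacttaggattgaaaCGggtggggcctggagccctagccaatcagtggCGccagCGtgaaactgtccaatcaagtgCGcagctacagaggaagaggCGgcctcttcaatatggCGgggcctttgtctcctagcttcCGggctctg
They hold 18, 16 and 9 CpGs, beside a median of 23.5 over the 182 members found in the RefSeq promoter table and 14 over all 35116 promoters in it. Fewer CpGs than ZNF440 were found in 40 of the 182, fewer than ZNF492 in 29 and fewer than ZNF736 in 6. All 3 hold the CCAAT motif, searched on both strands, as do 44.5% of the members' promoters and 34.6% of all promoters. These 3 windows hold neither TATAAA (4.95% of members, 11.5% of all) nor TGACGTCA (5.49% and 1.85%), on either strand.

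ZNF492 fell in the SMARCD2 and SMARCC2 clones. It read 11.5, 12.2 and 11.4 CPM in wild type and 0.516, 0.855 and 1.05 CPM in the SMARCD2 clone, where the third library kept it just above the silenced level. The fold change there was -3.67 log2 (SE 0.158, adjusted p = 1.37e-27). In the SMARCC2 clone it read 2.3, 1.36 and 2.5 CPM (-2.28, SE 0.133, adjusted p = 1.52e-21). The 66 libraries of the other 22 clones ran from 6.59 to 16.4 CPM and overlapped neither. Part of its sequence is not unique: 33.3% of the 50-base windows of the longest ZNF492 transcript also occur in other genes, 29.4% in ZNF98, and reads were 50 bases long. How such reads were counted was not given in the sources used here.

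ZNF736 was called in 1 clone and ZNF28 in 3. They and ZNF32 were chosen after their values were seen, because each was called. ZNF736 read 2.23, 2.59 and 2.57 CPM in the BCL7B clone against 14.6, 17.1 and 16.4 CPM in wild type (-2.63 against the clones of other genes, SE 0.114, adjusted p = 1.21e-27). The 69 libraries of the other clones ran from 7.23 to 23.2 CPM, so BCL7B stood apart. ZNF28, a KRAB zinc finger gene, read 1.02, 2.15 and 2.66 CPM in the BCL11A clone (-2.09) and 3.02, 2.45 and 3.4 CPM in the BCL7A clone (-1.46). It read 14.6, 16.2 and 20.7 CPM in the SMARCA2 clone (1.21), against 13.1, 12.2 and 10.4 CPM in wild type. Among the 63 libraries of the clones not called, ZNF28 ran from 2.35 to 16.8 CPM, so its low clones formed the end of a continuous range. ZNF32 read 5.69, 6.8 and 10.1 CPM in the PBRM1 clone, below all 69 libraries of the other clones (10.6 to 23.1 CPM); its log2 fold change was -1.14 (SE 0.136, adjusted p = 1.39e-09), and without replicate 1 it was -0.97 and no longer called.

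ZNF275 rose in the BRD9 and ARID1B clones. It read 51.8, 58.0 and 51.5 CPM in the BRD9 clone and 57.9, 62.5 and 63.8 CPM in the ARID1B clone, against 19.4, 24.6 and 26.2 CPM in wild type. All 66 libraries of the other clones lay between 11.3 and 33.7 CPM, below those of both clones. The log2 fold changes were 1.25 (SE 0.127, adjusted p = 5.44e-12) and 1.47 (SE 0.123, adjusted p = 3.25e-15). HAUS7, a nearby gene on chromosome X and a subunit of the augmin complex of the spindle, was also called higher in both clones, with 43.69 and 39.62 CPM against a wild-type mean of 20.32 CPM (1.16 and 1.03).

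ZNF711 was lower in both ARID1A clones and both SMARCA4 clones, and no other member was called in all 4. It was chosen after its values were seen for the knockout clones, and by the naming rule for the double-loss table. ZNF711 is an X-linked gene related to ZFX; its protein binds CpG-island promoters with the histone demethylase PHF8, and its mutation causes intellectual disability. In wild type it read 102, 116 and 93.2 CPM. It read 24.8, 21.4 and 28.7 CPM in ARID1A clone 618-10 and 27.2, 26.1 and 27.3 CPM in clone 618-3. SMARCA4 clone 2878-4 gave 29.8, 29.2 and 22.9 CPM, and clone 2878-6 gave 33.1, 27.8 and 21.7 CPM. These 12 libraries lay below all 60 libraries of the other clones, which ran from 51.7 to 141 CPM. The log2 fold changes were -1.68 (SE 0.141, adjusted p = 3.46e-15) and -1.58 (SE 0.139, adjusted p = 1.98e-14) for ARID1A and -1.51 in both SMARCA4 clones (SE 0.138; adjusted p = 3.77e-14 and 3.65e-14). The clones of the same gene did not differ in ZNF711 beyond their spread (-0.09, SE 0.172, for ARID1A; 0.00, SE 0.17, for SMARCA4).

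The genes beside ZNF711 did not all move with it. Of its 8 nearest protein-coding neighbours, 6 were at 3 CPM or more in wild type, and 9 of their 24 pairs with the 4 clones were called lower. POF1B, the next gene, was called lower in all 4 against the clones of other genes, with log2 fold changes of -1.52 and -3.20 in ARID1A clones 618-10 and 618-3 and -5.09 and -3.95 in SMARCA4 clones 2878-4 and 2878-6. Its means there were 1.297, 0.4044, 0.112 and 0.2692 CPM, and its wild-type mean was 14.19 CPM. The falls against the clones of other genes were smaller than those from wild type. POF1B was thus below wild type, on average, in the other clones too. CHM, between POF1B and DACH2, stayed at 77.7 to 87.5 CPM against 79.12 CPM. DACH2, a dachshund-family transcriptional cofactor, was called lower in all 4 (-2.73, -2.64, -4.70 and -3.77 in the same order), at 1.045, 1.126, 0.2895 and 0.5522 CPM beside 9.177 CPM in wild type. RPS6KA6, a ribosomal S6 kinase gene, was called lower in SMARCA4 clone 2878-4 (2.747 CPM, -3.06) and read 22.85 CPM in clone 2878-6, beside 23.35 CPM in wild type. The ZNF711 promoter, chrX:85243741-85244040 on the plus strand of GRCh38.p14 (RefSeq), is shown with each CpG in capitals because ZNF711 is the member that was called lower in these 4 clones and in the double-loss table.
ZNF711: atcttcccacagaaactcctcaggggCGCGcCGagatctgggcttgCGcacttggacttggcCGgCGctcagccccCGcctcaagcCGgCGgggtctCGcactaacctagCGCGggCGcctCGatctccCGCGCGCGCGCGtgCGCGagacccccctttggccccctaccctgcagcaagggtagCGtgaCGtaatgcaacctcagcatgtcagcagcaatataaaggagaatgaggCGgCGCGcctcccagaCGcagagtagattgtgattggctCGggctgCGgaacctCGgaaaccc
It holds 31 CpGs, more than 133 of the 182 members' promoters, and both a CCAAT and a TATAAA match.

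In the double-loss table, which the choice of members did not use, ZNF711 was lower again in SMARCA4 knockout cells. The labels do not say whether these cells are either SMARCA4 clone of the knockout table or another clone. ZNF711 read 34.3 and 37.6 CPM in them, against 113 and 100 CPM in wild type under the control knockdown (-1.61, SE 0.2, adjusted p = 0.000477). SMARCA4 knockdown in ARID2 knockout cells took it from 116 and 127 CPM to 45.0 and 45.4 CPM (-1.49, SE 0.2, adjusted p = 0.00437). Wild type under both knockdowns read 65.8 and 98.2 CPM, and this difference was not called (-0.39, SE 0.194, adjusted p = 0.431). SMARCA4 mRNA itself changed by -3.66 in the knockout and -4.03 under the knockdown in ARID2 knockout cells. Under both knockdowns in wild type it changed by -1.84 (SE 0.463, adjusted p = 0.104). ARID2 loss left ZNF711 at 116 and 127 CPM under the control knockdown, while the ARID2 clone of the knockout table read 68.8, 69.9 and 51.7 CPM (-0.18, SE 0.12, adjusted p = 0.311).

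**Figure D4:**
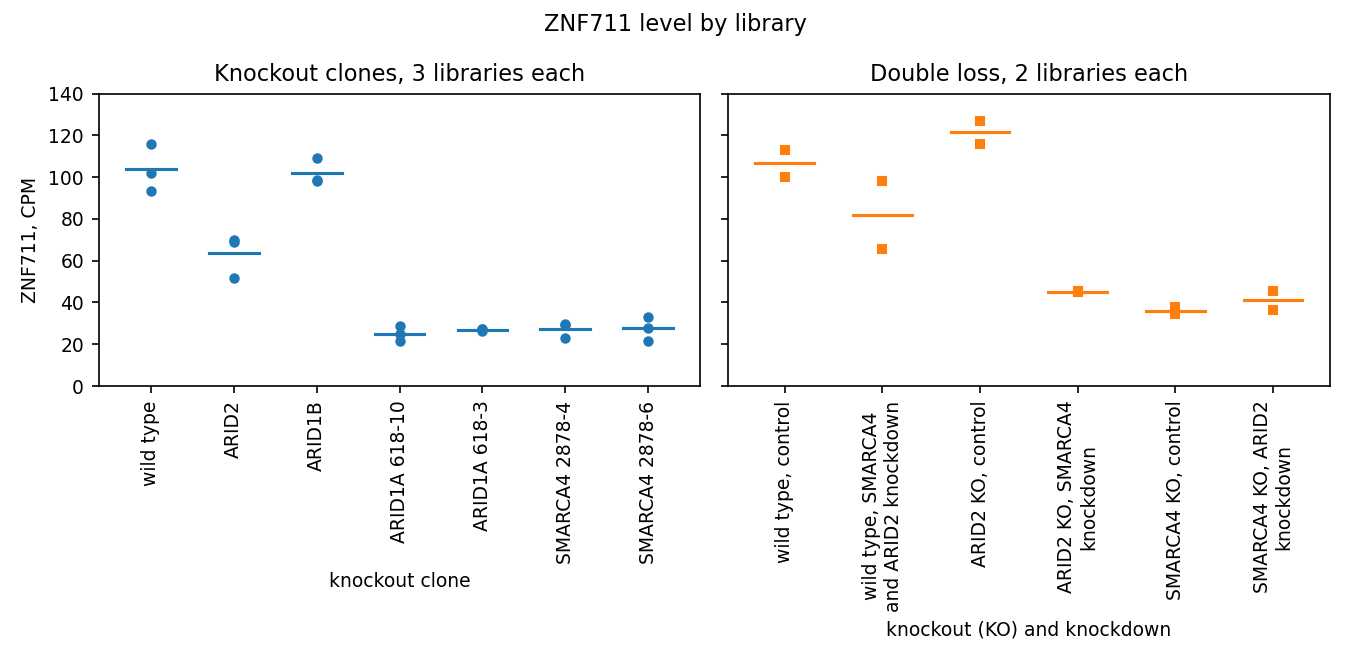
ZNF711 in every library (points, CPM) with group means (bars). Left, wild type and 6 knockout clones with 3 libraries each: both ARID1A and both SMARCA4 clones lie at 33.1 CPM or less. Right, the 6 double-loss groups with 2 libraries each: groups with SMARCA4 knocked out, or knocked down in ARID2 knockout cells, lie at 45.4 CPM or less.

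ZNF608, a paralogue of ZNF609, was the only member called between clones of the same gene. In ARID1A clone 618-3 it read 1.67, 2.03 and 1.56 CPM and in clone 618-10 3.21, 3.15 and 5.32 CPM, against 9.19, 8.27 and 12.6 CPM in wild type. In SMARCA4 clone 2878-4 it read 2.3, 2.23 and 1.96 CPM and in clone 2878-6 6.15, 4.07 and 4.37 CPM. Clone 618-10 exceeded 618-3 by 1.16 (SE 0.233, adjusted p = 0.000638), and clone 2878-4 minus clone 2878-6 gave -1.15 log2 (SE 0.221, adjusted p = 0.00023). The libraries of the paired clones did not overlap in either gene. For ARID1A, 0.439% of all genes tested were called lower and 0.817% higher between clones; for SMARCA4, 1.06% and 0.786%. Without replicate 3 the ARID1A difference was 0.80, and without replicate 1 the SMARCA4 difference was -0.99; neither was then called.

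Against the clones of other genes, ZNF608 was called lower in ARID1A 618-3 (-2.25), SMARCA4 2878-4 (-1.87) and ARID1A 618-10 (-1.08, and -0.91 and not called without replicate 1). It was called higher in the DPF2 clone, at 22.5, 22.3 and 22.1 CPM (1.63, SE 0.116, adjusted p = 9e-18), which is above all 69 libraries of other genes' clones. In the BCL7A clone it read 15.6, 13.5 and 15.9 CPM (1.04). The ARID1B clone (4.0, 4.43 and 3.26 CPM) and the SMARCC2 clone (2.73, 5.0 and 5.34 CPM) were also low, at -0.98 and -0.87, under the minimum fold. PRDM6, a nearby gene, was called higher in the 3 clones where ZNF608 was called lower, by 1.80 to 1.81 log2 against the clones of other genes. It read 6.16, 6.202 and 6.093 CPM there, beside a wild-type mean of 3.343 CPM. PRDM6 also passed the adjusted p, under the minimum fold, where ZNF608 was called higher. It was higher by 0.74 in the DPF2 clone (3.224 CPM) and by 0.61 in the BCL7A clone (2.946 CPM). The ZNF608 promoter holds 6 CpGs, with fewer in only 3 of the 182 members' promoters.

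Double-loss values are from the edgeR fit without a replicate block (a term for replicate number), unless the block or DESeq2 is named. Besides ZNF711, 5 members were called in that fit, each where SMARCA4 was knocked out, or knocked down in ARID2 knockout cells. Of these 5, only ZNF32 was called in both the knockout and the knockdown. In SMARCA4 knockout cells under the control knockdown 2 members were called lower and 2 higher, 0.939% each, beside 2.75% and 3.34% of all genes tested. ZNF28 read 2.44 and 2.71 CPM against 10.6 and 5.85 CPM in wild type (-1.72, SE 0.379, adjusted p = 0.0161), while under SMARCA4 knockdown in ARID2 knockout cells its difference was 0.81 (SE 0.36, adjusted p = 0.219). ZNF783 read 40.6 and 33.9 CPM against 18.9 and 15.7 CPM (1.06, SE 0.197, adjusted p = 0.00589). ZNF32 read 16.1 and 24.3 CPM against 9.18 and 10.1 CPM (1.02, SE 0.272, adjusted p = 0.0426). Leaving out 1 library ended the call of ZNF28 (-1.79 to -1.23), ZNF783 (0.93 and 0.94) and ZNF32 (0.70 to 1.10), most of them without a wild-type or SMARCA4 knockout library. In the knockout table ZNF783 was 31.5 to 35.6 CPM in the SMARCA4 clones and 32.0 to 33.4 CPM in the ARID2 clone, above the wild-type 15.8 to 18.5 CPM. ZNF28 there was 4.53, 5.36 and 3.51 CPM in clone 2878-6 and 8.09, 8.78 and 4.85 CPM in clone 2878-4. ZNF32 was 13.9 to 19.5 CPM in those clones, overlapping the wild-type 13.7 to 16.5 CPM.

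SMARCA4 knockdown in ARID2 knockout cells also called 2 members lower and 2 higher, beside 1.18% and 1.7% of all genes. ZNF117 fell from 19 and 17.8 CPM to 5.93 and 5.44 CPM (-1.75, SE 0.21, adjusted p = 0.00312). ZNF117 lies beside the endogenous retroviral envelope gene ERV3-1, and 1.98% of its 50-base windows also occur there. In SMARCA4 knockout cells it read 19.7 and 18.7 CPM, and in the SMARCA4 clones 18.9 to 25.2 CPM, and wild type under both knockdowns read 12 and 12.2 CPM (-0.51, adjusted p = 0.292). ZNF692 rose from 18.5 and 15.7 CPM to 44.5 and 45.2 CPM (1.34, SE 0.223, adjusted p = 0.00985), and ZNF32 from 10.3 and 14.4 CPM to 38.9 and 27.2 CPM (1.35, SE 0.273, adjusted p = 0.0231). The calls of ZNF692 and ZNF32 were lost without either library of the ARID2 knockout control. With a replicate block ZNF138 was called as well, at -1.19 (adjusted p = 0.0422).

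The remaining double-loss comparisons called no member with edgeR without the replicate block. These were ARID2 knockout (1.16% of all genes called lower and 0.411% higher), both knockdowns in wild type (0.267% and 0.295%) and ARID2 knockdown in SMARCA4 knockout cells (0% and 0.0205%). At an unadjusted edgeR p under 0.05 they held 7, 8 and 3 of the 213 members. Over all genes, 14% of tests passed that limit when the 5 double-loss comparisons were pooled. The share in each comparison is not given here, so nothing is read from these counts. DESeq2 called 0, 1 and 0 members. The 1 member was ZNF138, lower under both knockdowns in wild type; with the replicate block it was called too (-1.29, SE 0.315, adjusted p = 0.0474), at 6.8 and 8.79 CPM against 14.3 and 23.7 CPM. ZNF440 read 3.2 to 11.5 CPM over the 12 double-loss libraries, with no call. It was higher in replicate 1 than in replicate 2 in every group. Under SMARCA4 knockdown in ARID2 knockout cells its edgeR difference was 0.79 (SE 0.484, adjusted p = 0.379). With the replicate block it was 0.78 (SE 0.224, adjusted p = 0.0444), under the minimum fold. ARID2 mRNA was not called lower in ARID2 knockout (-0.36), both knockdowns in wild type (-0.46) or ARID2 knockdown in SMARCA4 knockout cells (-0.66).

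With no minimum fold, 186 of the 213 members passed the adjusted p in at least 1 clone. The matching count over all genes is not given here, and by pair members passed less often than all genes tested. The ARID1B, SMARCA4 2878-4 and BCL7B clones had the largest excess of lower over higher members. More members were lower than higher also in the SMARCA4 2878-6, SMARCD1 (23 and 10), ARID1A 618-10 (21 and 13), ACTB (16 and 10) and BCL11A (10 and 2) clones. At the adjusted p alone 432 pairs were lower (8.45%) and 376 higher (7.36%), beside 9.69% and 11.6% of all genes tested. In the ARID1B clone 71 members were lower and 12 higher (15.2% and 18.3% of all genes), with a median of -0.160 log2 beside 0.015 for all genes at 10 CPM or more. In the BCL7B clone 59 were lower and 10 higher (13.8% and 15.8%), with a median of -0.084 beside 0.029. SMARCA4 clone 2878-4 had 67 lower and 20 higher (20.1% and 22.3%), with a median of -0.110 beside -0.001. Clone 2878-6 had 44 and 22 (19.7% and 21.6%), with a median of -0.024 beside -0.005. Among all genes at 10 CPM or more, 16.4% were lower and 21.4% higher in the ARID1B clone and 12.8% and 18.4% in the BCL7B clone. The shares were 22.8% and 24.4% in clone 2878-4 and 22.8% and 23.8% in clone 2878-6. Besides ZNF608, the largest falls under the minimum fold in the ARID1B clone were ZNF561 and ZNF436, named after their values were seen. ZNF561 read 12.5, 14.9 and 12.7 CPM against 20.1, 30.9 and 30.6 CPM in wild type (-0.96). ZNF436 read 29.6, 33.2 and 35.7 CPM against 76.9, 74.4 and 67.1 CPM (-0.94). In the BCL7B clone ZNF331 read 16.5, 20 and 23.9 CPM against 35.1, 49.3 and 47.6 CPM (-0.94).

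Members on chromosome 19 shifted further than the rest in the BCL7B clone. RefSeq places 78 members on chromosome 19 and 131 on other chromosomes. In the BCL7B clone 37 of the 78 were lower and 1 higher, with a median of -0.242, while 22 of the 131 were lower and 9 higher, with a median of -0.033. The 472 other chromosome 19 genes at 10 CPM or more had a median of -0.032. In the SMARCA2 clone the direction was opposite: 21 of the 78 were higher and 1 lower (median 0.144), and 5 of the 131 higher and 2 lower (median 0.029), beside 6.53% of all genes lower and 7.32% higher. In the ARID1B clone the medians were -0.205 on chromosome 19 and -0.151 elsewhere. With offsets for the trend of counts with GC content these medians were -0.255 and -0.018 (BCL7B), 0.134 and 0.043 (SMARCA2) and -0.192 and -0.148 (ARID1B). These are descriptions of 1 clone each, and the difference between chromosomes was not tested.

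**Figure D5:**
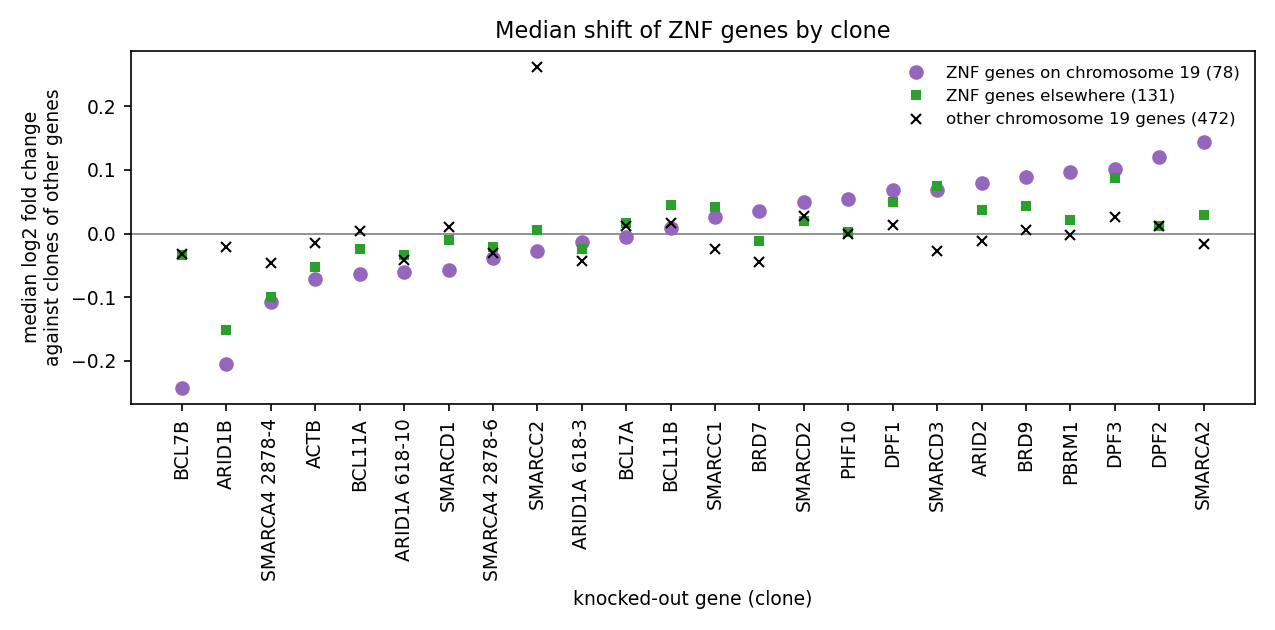
Median log2 fold change in each clone against the clones of other genes, for ZNF genes on chromosome 19 (circles), ZNF genes elsewhere (squares) and other chromosome 19 genes at 10 CPM or more (crosses). The BCL7B clone shows the widest gap, -0.242 against -0.033, and the SMARCC2 clone has a chromosome 19 median of 0.262 for other genes.

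In the SMARCC2 clone 55 members were lower and 56 higher (23.8% and 25.2% of all genes). Its fold changes followed GC content across 9032 genes (Spearman's rho 0.595, a correlation across genes, which are not independent), and with GC offsets the counts were 27 and 35. The members' transcripts have a median GC content of 44.2%, beside 47.5% for all genes at 10 CPM or more.

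Genes of the silencing pathway that KRAB proteins recruit, and of DNA methylation and its removal, did not change by the fold required. The list held 26 genes: TRIM28, SETDB1 and its partner ATF7IP, heterochromatin proteins and the HUSH complex, the SUV39H and EHMT histone methyltransferases, DNMT and TET enzymes and their cofactors, and 25 were tested. Of 600 pairs 0 were called with edgeR or DESeq2, beside 2.23% lower and 2.49% higher of all genes with edgeR. In wild type 24 of the listed genes were at 10 CPM or more, and among all such genes 0.743% of pairs were called in each direction. At an unadjusted edgeR p under 0.05, 70 were lower (11.7%, beside 14.3% of all tests) and 82 higher (13.7%, beside 16.3%). TRIM28 ran from -0.19 to 0.29 and SETDB1 from -0.45 to 0.20 log2 over the 24 clones. In the 3 clones with ZNF440 silenced the largest differences were TET2 in ARID1B (-0.62, SE 0.168, adjusted p = 0.00254) and DNMT3B in SMARCD1 (-0.50, SE 0.113, adjusted p = 0.000494). The largest over all clones was DNMT1 in SMARCC2, at 0.85 (SE 0.139, adjusted p = 9.91e-07), which passed the fold without replicate 3 (1.12). Among double-loss pairs, 0 of 125 were called by edgeR or DESeq2, with 13 at an unadjusted p under 0.05 (10.4%, beside 14% of all tests).

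Against wild type, whose libraries chose the members, 17 members were called in either direction in some clone. They made 37 pairs called lower and 4 called higher, beside 2.24% lower and 2.46% higher of all genes tested. Nothing is read from this split. The median over members of the median clone minus wild type was -0.075 log2 CPM, beside -0.006 over all genes at 10 CPM or more.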

How the data were processed

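Gene-level read counts deposited by the authors were used for 75 libraries of 25 groups (3 each) and 12 libraries of 6 groups (2 each). The deposited values are expected counts that are whole numbers with a lowest value of 1, so low levels have that floor. The submitters' processing notes name Trimmomatic, Bowtie, Picard and DESeq2 and the builds GRCh37 and hg19; neither a counting tool nor an annotation is named in these sources. Libraries were made with a stranded kit and 50-base single reads, per the labels' protocols. The authors' deposited log2 table (quantile-normalized, 71 columns used) served only as an alternative measure of silencing. Its values follow CPM (ZNF664: 8.236 beside 302.7 CPM), so it gave no length-scaled levels. Another 8 columns matched no sample and were not used.

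CPM is 1000000 times the count over the column total. All libraries of a table were fitted together with edgeR 4.0.16 in R 4.3.3 (filterByExpr, TMM, robust quasi-likelihood test), testing 16159 and 14601 genes; all 213 members were tested in both. P-values were adjusted over all genes of a contrast. Intervals of single counts are not given, and errors cover the spread between libraries. Alternatives were DESeq2 1.42.0, RLE size factors, no filter, a replicate block, GC offsets, other membership and silencing limits, and leaving out libraries. The tests were tried on simulated counts with known changes. No libraries of a group agreed within sampling noise (lowest chi-square per degree of freedom 7.45 and 9.43).

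Replicate numbers paired the double-loss libraries: same-numbered libraries deviated together from their group means in all 30 pairs (r from 0.143 to 0.623). With 2 libraries per group, both deviate equally and in opposite directions from their mean. Each r is therefore counted once for each replicate number, and the 30 pairs are not independent. In the knockout table only 401 of 900 same-numbered pairs exceeded 0.1, so its numbers were not treated as pairing.

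The members and gene lists were chosen with earlier results of these data known. Genes were named by a rule: members silenced in a clone, the 3 most and 3 least variable, 3 on each side of the 10 CPM threshold, the largest called increases, members called between clones of a gene, and the 3 largest calls each way per double-loss contrast; others are marked where they occur. RefSeq (GRCh38.p14) gave promoters for 182 members; names, not coordinates, linked it to the count tables.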

Additional observations from a re-analysis of the deposited data

Results flagged for a closer look

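ZNF608 differed between clones of the same knocked-out gene in both genes that have 2 clones. ARID1A clone 618-10 minus clone 618-3 was 1.16 log2 (SE 0.233, adjusted p = 0.000638, edgeR), with 3.21, 3.15 and 5.32 CPM against 1.67, 2.03 and 1.56 CPM. SMARCA4 clone 2878-4 minus clone 2878-6 was -1.15 (SE 0.221, adjusted p = 0.00023), with 2.3, 2.23 and 1.96 CPM against 6.15, 4.07 and 4.37 CPM. The same contrast between clones of a gene thus gave calls for ZNF608 and for no other member. The next largest absolute differences were 0.63 and 0.71. In each gene 1 of 213 members was called (0.469%). Over all genes tested, 0.439% were called lower and 0.817% higher for ARID1A, and 1.06% and 0.786% for SMARCA4. The ARID1A call was lost without replicate 3 and the SMARCA4 call without replicate 1.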

How the results depend on the processing

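Counts of called pairs against the clones of other genes (21 lower, 15 higher) held within 1.5 times under RLE size factors, DESeq2, no filter, the replicate block (21 and 15) and GC offsets. Leaving out a replicate gave 19 to 27 lower and 14 to 17 higher. They moved with no minimum fold (432 and 376), comparison with wild type (37 and 4), membership at 5 CPM (48 and 37) or 20 CPM (4 and 2), and without ZNF440 (13 and 5, chosen after seeing the data). Calls against wild type ranged over 36 to 43 lower and 4 to 5 higher without a replicate. The 36 called pairs kept their call in 321 of 324 settings and reversed in 0; lost were ZNF32 in PBRM1 (-0.97) and ZNF608 in ARID1A 618-10 (-0.91) without replicate 1, and ZNF608 in BCL7A (1.00) without replicate 3.

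Silenced pairs numbered 3 under TMM-scaled CPM, 1 under 0.5 CPM, 6 under 2 CPM, 10 with membership at 5 CPM and 0 at 20 CPM, and 4 by group mean or by the authors' log2 values at -3 from the median; the fourth was ZNF492 in SMARCD2. Without a replicate they numbered 3 to 4. The matching counts over all genes are not given here. Sister calls numbered 0 to 1 in each gene without a replicate, and 5 for SMARCA4 with no minimum fold. Machinery pairs called higher numbered 0 to 1 without a replicate.

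In the double-loss table, SMARCA4 knockout called 2 to 4 members and SMARCA4 knockdown in ARID2 knockout cells 2 to 5 when a library was left out; ZNF28, ZNF32, ZNF692 and ZNF783 lost calls, and ZNF711 and ZNF117 lost none. A group left with 1 library is assumed to vary as the others do. Both knockdowns in wild type called 1 member with DESeq2 and 1 with the replicate block, which pairs the libraries; the block changed no other count by over 1.5 times. In the knockout table not every same-numbered pair correlated, so numbers were not treated as pairing, although 54 of 75 libraries correlated best with their own number, a hint of a shared effect. The causes of these moves were not tested. ZNF440 in its 3 silenced clones rests on 6 to 15 counts per library, and 2 libraries per group limit the double-loss tests.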

Other observations

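ZNF genes below the 10 CPM limit in wild type, outside the 213, included 3 that fell under 1 CPM in every library of a clone. The matching share of all genes is not given here, so nothing is read from this count. ZNF256, another KRAB zinc finger gene of chromosome 19, had a wild-type mean of 6.051 CPM (SD 1.51, n = 3) and read 0.0541, 0.0527 and 0.189 CPM in the ARID1B clone and 0.102, 0.136 and 0.0855 CPM in the BCL7B clone, which are 2 of the 3 clones with ZNF440 silenced. ZNF772 (7.232 CPM in wild type, SD 0.589) read 0.734, 0.778 and 0.798 CPM in the SMARCD1 clone, the other clone with ZNF440 silenced. ZNF660 (9.427 CPM in wild type, SD 1.18) was under 1 CPM in all libraries of the ARID2, DPF1, DPF3 and SMARCA4 2878-4 clones, with means of 0.322, 0.8447, 0.5038 and 0.5227 CPM. ZNF660 was not under 1 CPM in every library of the sister SMARCA4 clone 2878-6.

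ZNF441, near ZNF440 on chromosome 19 and not a member (8.546 CPM in wild type), was called lower in the BCL7B clone at 2.572 CPM (-1.56, SE 0.178, adjusted p = 1.65e-10). In the SMARCD1 clone it read 9.898 CPM and in the ARID1B clone 5.261 CPM, neither called. ZNF627 and ZNF700, members near ZNF440, were at 11.85 and 10.62 CPM in the BCL7B clone, beside wild-type means of 15.14 and 16.93 CPM, and were not called. Of 72 pairs of 4 expressed neighbours and the 18 clones where ZNF440 was called, ZNF441 in BCL7B was the only call.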
